A study of Drosophila melanogaster with 2 samples.

Results

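The regions described here lie at 9 genes of the apoptosis machinery of Drosophila melanogaster, among 13945 protein-coding genes on the 6 chromosome arms. The members were listed by name: the activators rpr, hid, grim and skl, the inhibitor Diap1, the caspases Dronc, Drice and Dcp-1, and the transcription factor p53. All 9 names had a gene model in Ensembl release 115, and RefSeq gave each the same start and end. A region belonged to a gene when its summit, the position the authors marked within the region, lay in the gene or within 10 kb of either end. Chromatin came from entire animals of both sexes in the third instar, at the wandering larval stage, from 1 transgenic line that stably made the fly Jun protein Jra with a C-terminal GFP tag. DNA was precipitated with an antibody to GFP. There was 1 group with 2 biological replicates, numbered 1 and 3, and no second condition. Whether the untagged gene was also present is not given in the sources used here.

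The list that the authors filtered by reproducibility (irreproducible discovery rate, IDR) held 3803 peaks on the arms of build dm6, with signals from 70.6 to 1184 and a median of 104. Signal is the peak caller's own value for a region. It has a separate scale in each list, so replicates are compared by rank. The pooled list and the lists of replicates 1 and 3 held 29970, 30000 and 29971 regions on the arms, weak background regions included. These lists hold no read counts, so read depth is unknown and no interval can be put on a signal. In whole larvae, binding in few cells and weak binding in many cells cannot be told apart. With 1 condition and 2 replicates no test between groups could be made, and genes are not replicates of each other. Each count is therefore given beside the same count over all protein-coding genes or all peaks.

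Apoptosis in the fly is set off by the products of rpr, hid, grim and skl. These proteins bind Diap1, a ubiquitin ligase that otherwise holds caspases in check. Once freed, the initiator caspase Dronc cleaves the effector caspases Drice and Dcp-1, which dismantle the cell. p53 is a transcription factor of the DNA damage response that activates genes including rpr. Jra forms the transcription factor AP-1 with the Fos protein kay, downstream of the JNK kinase pathway, and JNK signalling is known to raise rpr and hid expression in imaginal discs.

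The sequences under the main peaks of rpr, hid and Diap1 are shown because they differ in the AP-1 site, which reads TGACTCA on one strand and TGAGTCA on the other. Each is 101 bases of the RefSeq Release 6 genome (dm6), plus strand, centred on the summit, and capitals mark an exact AP-1 site.
rpr, upstream peak, chr3L:18402441-18402541: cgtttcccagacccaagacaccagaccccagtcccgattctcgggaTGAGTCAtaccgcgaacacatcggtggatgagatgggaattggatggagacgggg
hid, distal upstream peak, chr3L:18195128-18195228: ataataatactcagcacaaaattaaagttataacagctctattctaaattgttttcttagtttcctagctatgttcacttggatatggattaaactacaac
hid, promoter peak, chr3L:18185897-18185997: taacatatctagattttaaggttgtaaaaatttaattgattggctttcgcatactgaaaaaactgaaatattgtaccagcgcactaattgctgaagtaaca
Diap1, strongest peak, chr3L:16046144-16046244: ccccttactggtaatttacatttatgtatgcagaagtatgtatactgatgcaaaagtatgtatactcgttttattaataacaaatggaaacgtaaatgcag
The site in the rpr sequence has its centre 1 bp from the summit. The other 3 sequences hold no exact site, as is so for most peaks. Of all peaks on the arms, 4.08% held one within 50 bp of the summit. Both hid peaks and the Diap1 peak had higher signals than the rpr peak. The GC content of the rpr window was 57.4%, against 27.7%, 29.7% and 30.7% in the others and a median of 37.6% over all peaks on the arms.

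The 9 windows held 17 IDR summits, at 6 of the 9 genes (66.7%). Over all protein-coding genes, 54.0% had a summit in the same window, so the share of members with a peak lay near the background. Gene length bears on this count. Among genes of up to 5 kb the background was 50.6%, and 4 of the 7 members of that length had a summit. Among longer genes it was 64.1%, and both such members, hid and Diap1, had summits. Windows with 2 or more summits were found at 5 of the 9 genes (31.8% of all protein-coding genes). These 5 include Dcp-1, whose 2 summits lie in overlapping regions. In the top 3827 regions of replicate 1 alone, 6 of the 9 genes had a summit (background 56.1%), and in those of replicate 3 alone 5 did (54.3%). The genes with none in any of these lists were grim, skl and Drice.

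**Figure D1:**
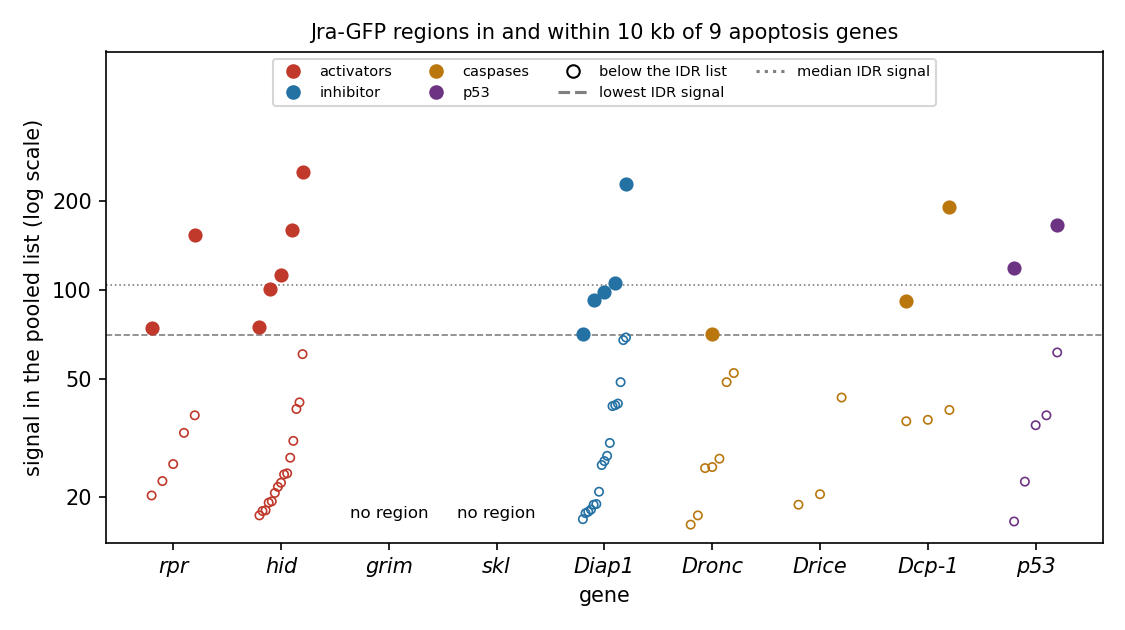
Signal in the pooled list (log scale) of each region whose summit lies in or within 10 kb of the gene. Filled points are peaks of the IDR list and open points are regions below it, coloured by the role of the gene. Lines mark the lowest and the median IDR signal (70.6 and 104). The highest points are at hid (250) and Diap1 (229), while grim and skl have no region and Drice has only open points.

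Among the activators, hid had the most peaks. Its product is a mitochondrial protein that antagonises Diap1. The gene lies at 3L 18167745 to 18185641 on the minus strand, and all 5 of its IDR summits were upstream of the start site, none in the gene. The promoter peak, 306 bp upstream, had a signal of 160 (rank 796 of 3803). It ranked 735 in replicate 1, with a signal of 97.6, and 904 in replicate 3, with a signal of 70.9. It was therefore among the stronger regions of both lists.

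The strongest peak in the windows of all 9 genes was the farthest upstream at hid. It lay 9537 bp from the start site, with a signal of 250 (rank 251 of 3803, within the top 6.6%). In replicate 1 it had a signal of 145 and rank 260, and in replicate 3 a signal of 119 and rank 222. Both replicates thus placed it at a similar rank. The protein-coding start site nearest to this summit was that of CG7320, at 6316 bp, and the start of the non-coding gene lncRNA:CR45234 was nearer still, at 994 bp. Assignment to hid therefore rests on the window alone. The next IDR summit beyond the window lay 19080 bp from the 3′ end of the hid gene, with a signal of 73.

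The other 3 peaks upstream of hid were weaker. The peak 5062 bp upstream had a signal of 112 and ranks of 1883 and 1762 in replicates 1 and 3. The peaks at 7368 and 8800 bp had signals of 101 and 75. Both ranked higher in replicate 3 (935 and 2342) than in replicate 1 (4883 and 5518). Within the 17897 bp of the hid gene the pooled list held only regions below the IDR list. None of the 5 IDR windows at hid held an exact AP-1 site, and only the one 7368 bp upstream held a site with 1 mismatch outside its central base. Over all peaks on the arms the shares were 4.08% and, with at most 1 mismatch, 19.5%. The counts at hid therefore lay near the background.

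At rpr, whose product is a short protein that binds Diap1, there were 2 peaks. The gene spans 901 bp at 3L 18397535 to 18398435, minus strand. The stronger peak (chr3L:18402413-18402593) lay 4056 bp upstream and ranked 889 of 3803, with a signal of 153. Replicate 1 gave it 95.2 (rank 778) and replicate 3 gave it 62.8 (rank 1201). This is the peak with the AP-1 site shown above. It was the only one of the 17 with an exact site within 50 bp of its summit, and no other protein-coding start site was nearer to it than that of rpr.

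The promoter peak of rpr was weak and ranked far lower in replicate 3 than in replicate 1. Its summit lay 3 bp inside the transcript start, with a signal of 74.1 (rank 3502 of 3803). In replicate 1 the signal was 52.4 and the rank 2507. In replicate 3 they were 20.3 and 9779, so the region was not among the 3827 strongest there. The region holds an AP-1 site, centred 149 bp from its summit.

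grim and skl, the other activators of this family, had no peak. The grim gene lies at 3L 18302719 to 18304417 and skl at 3L 18438561 to 18439942. No region of the pooled list, background included, had its summit in either window, which was so for 13.3% of all protein-coding genes. The nearest pooled summit was 11016 bp from grim and 12979 bp from skl. The list of replicate 1 held nothing in either window. That of replicate 3 held 1 region at grim, with a signal of 9.44 (rank 27546 of 29971), and none at skl. The grim window contains 4 exact AP-1 sites and the skl window 2. None lay in a listed pooled region, which follows from the lack of pooled summits in these windows. Over the arms, 16.7% of exact AP-1 sites lay in a pooled region.

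**Figure D2:**
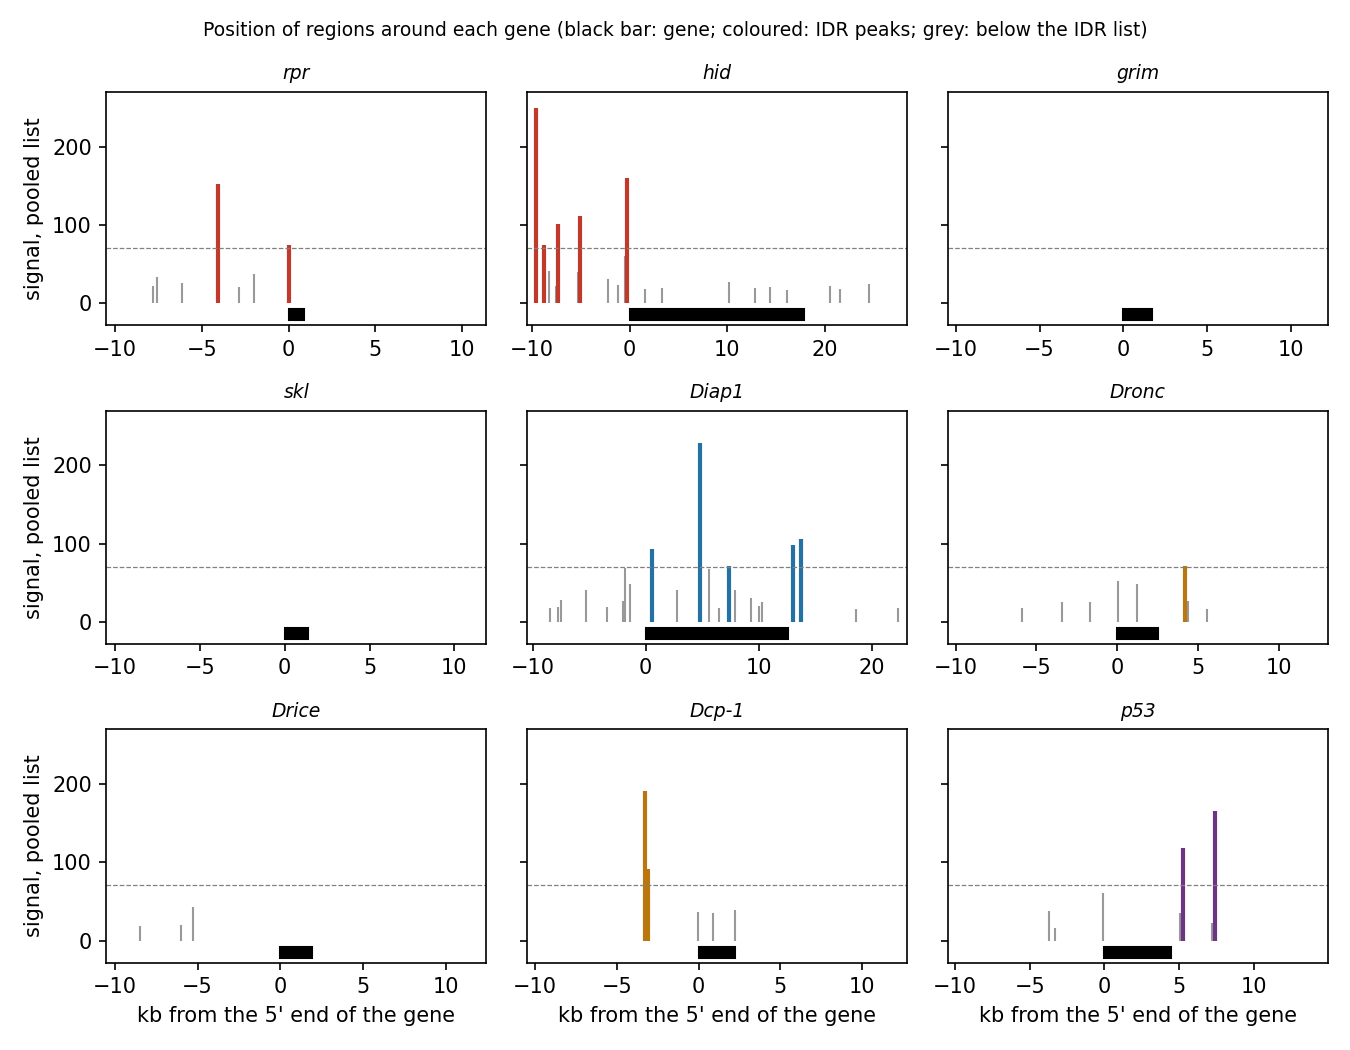
Signal in the pooled list against the distance of the summit from the 5′ end of the gene in kb, with the gene drawn left to right as a black bar. Coloured lines are IDR peaks, grey lines are regions below the IDR list, and the dashed line is the lowest IDR signal (70.6). Peaks stand upstream of hid and at and upstream of rpr, within and just beyond Diap1, and outside the gene at Dronc, Dcp-1 and p53.

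These 4 activator genes lie on 3L in the order hid, grim, rpr and skl, over 272.2 kb. Between hid and grim (117.1 kb, with 4 other protein-coding genes) there were 8 IDR summits. The 93.1 kb from grim to rpr held none, and the 40.1 kb from rpr to skl held 1, the upstream rpr peak. Beyond the hid window, the strongest peak of the interval lay 50.4 kb from the hid start site, with a signal of 239 (rank 291 of 3803). It ranked 229 in replicate 1 and 481 in replicate 3. The nearest protein-coding start site, that of CheA75a, was 16.1 kb from it, and that of lncRNA:CR45937 was 1264 bp away. This interval was examined after its values were seen. The 2 other peaks of the interval had signals of 71.6 and 107.

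**Figure D3:**
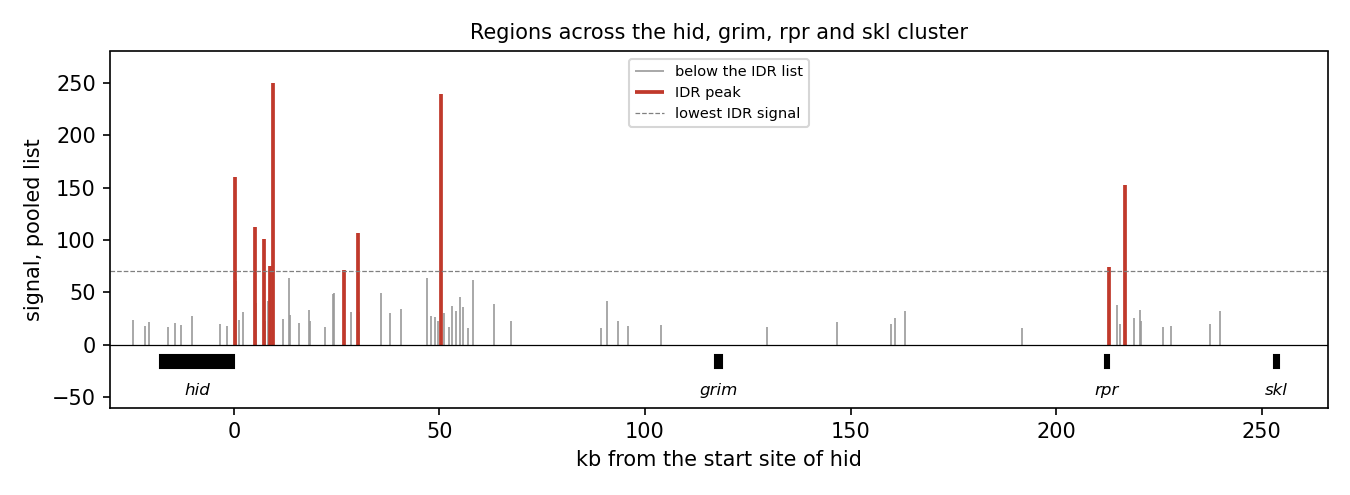
Signal in the pooled list against distance in kb from the start site of hid, for the interval that holds hid, grim, rpr and skl (black bars). Red lines are IDR peaks, grey lines are regions below the IDR list, and the dashed line is the lowest IDR signal (70.6). The IDR peaks fall in 2 stretches, from hid to 50.4 kb and at rpr, with none around grim or skl.

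The inhibitor Diap1 had 5 summits, as many as hid. Of protein-coding genes of all lengths, 4.03% had 5 or more in their window. That share is not matched for length, and hid and Diap1 are the 2 members longer than 5 kb. Diap1 lies at 3L 16038410 to 16051034, minus strand, with 5 annotated start sites. Its strongest peak lay inside the gene, 652 bp downstream of the nearest of these and so counted with the promoter peaks, with a signal of 229 (rank 332 of 3803). Signals of 138 in replicate 1 and 90.4 in replicate 3 placed it at ranks 308 and 485. This peak was strong in both replicates.

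The other 4 peaks at Diap1 were near or below the median signal of the list. The one 203 bp downstream of a start site had a signal of 92.7, with rank 1477 in replicate 3 and 7013 in replicate 1. An intronic peak, 1095 bp upstream of the nearest start site, had a signal of 71 and ranks of 4843 and 5441. It was thus outside the 3827 strongest regions of both replicates. A pair of peaks lay beyond the 3′ end of the gene, at 387 and 1167 bp, with signals of 98.8 and 106. The start site nearest to this pair belongs to CG5895, so 3 of the 5 peaks were nearest to Diap1 itself. At the other end, a region of signal 69.1, just below the IDR list, lay in Mbs, which encodes a myosin phosphatase subunit.

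The caspase windows held 3 summits, or 0.45 per 10 kb, near the 0.445 over the windows of all protein-coding genes. None was at a caspase promoter, while 20.4% of all protein-coding genes had a summit at theirs. Dronc, at 3L 9968479 to 9971002, had 1 summit in its window, with a signal of 71.1 (rank 3758 of 3803). It lay 1667 bp beyond the 3′ end of the gene and 87 bp from the start site of vnc, which encodes an N-terminal acetyltransferase and shares its locus with CG42455. It ranked 3852 in replicate 1 and 4404 in replicate 3, outside the 3827 strongest regions of each. The Dronc promoter itself had a region below the IDR list, 78 bp downstream of the start site, with a signal of 52.4. Replicate 1 ranked that region at 3720 and replicate 3 at 18796.

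Drice, at 3R 29799658 to 29801584, had no IDR summit in its window. The pooled list held 3 weaker regions there, all upstream. The strongest had a signal of 43.3 and lay 5282 bp from the Drice start site, 221 bp from that of sro, a gene of ecdysone synthesis. It ranked 9887 in replicate 1 and 8367 in replicate 3. Part of kay, which encodes the Fos partner of Jra, also lies in that window. The nearest IDR summit, of signal 83.6, lay 13088 bp from Drice, just outside the window.

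Dcp-1, at 2R 23551313 to 23553547, had 2 IDR summits upstream, in regions that overlap by 73 bp. The stronger had a signal of 191 (rank 530 of 3803) and lay 3276 bp upstream, 49 bp from the start site of wmd. The other had a signal of 91.8 and lay 3077 bp upstream, 3 bp from the start site of levy, which encodes a subunit of cytochrome c oxidase. In each replicate the strongest region overlapping these peaks was the same for both. It had signal 117 and rank 464 in replicate 1, and signal 67.8 and rank 1011 in replicate 3. The 2 regions overlap, so the peaks are not taken as independent. Because only the strongest overlapping region is used, these values cannot show whether a replicate separates them. In the top 3827 regions of replicate 1 the Dcp-1 window held 2 summits. A region at the Dcp-1 promoter, 16 bp upstream of the start site and within the gene pita, had a signal of 36.4. It overlapped a region of replicate 1 (rank 5178) and none of replicate 3. In the top 3827 regions of replicate 3 alone, the 3 caspase windows held 1 summit, at Dcp-1, in place of 3.

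p53, at 3R 23049657 to 23054082 on the minus strand, had 2 peaks, both beyond its 3′ end. The peak 3005 bp past the gene, in an intron of CG17121, had a signal of 166 (rank 745 of 3803). Its ranks were 647 in replicate 1 and 1259 in replicate 3. The other lay 850 bp past the gene with a signal of 119, and ranked 2482 and 1018. Both were in the strongest 3827 regions of each replicate, and both were nearest to the start site of CG17121. The promoter of p53 had a region below the IDR list, 76 bp upstream of a start site, with a signal of 61.5. Replicate 1 gave that region 39.8 (rank 3990) and replicate 3 gave it 16 (rank 13793).

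**Figure D4:**
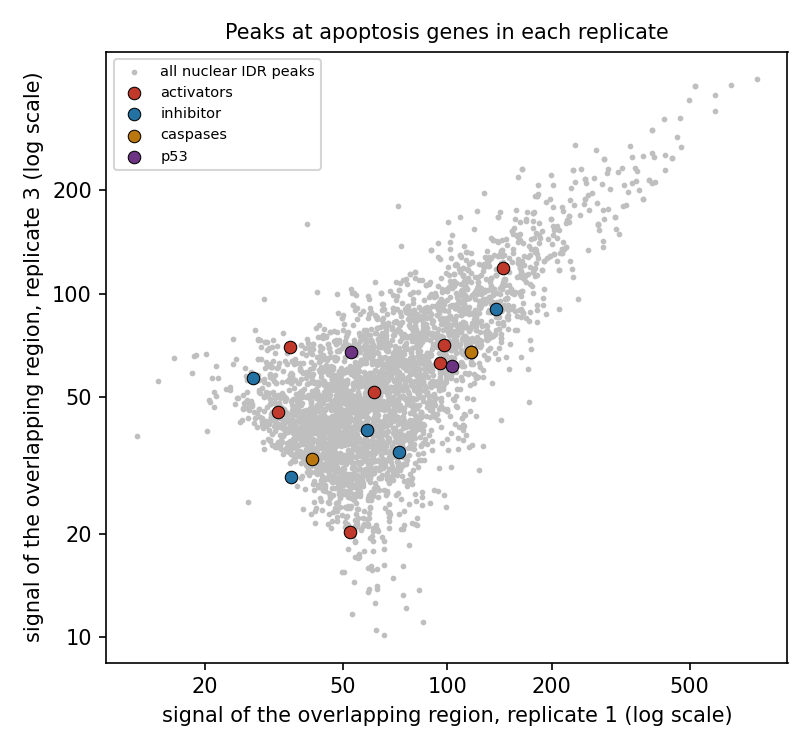
Signal of the region that overlaps each IDR peak in replicate 1 and in replicate 3, both on log scales. Coloured points are the 17 peaks at apoptosis genes and grey points are the IDR peaks on the arms with a region in both lists (38 have none in 1 or both). The overlapping peaks at Dcp-1 fall on the same point. The peak far upstream of hid is highest among the coloured points, and the rpr promoter peak is the lowest in replicate 3.

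By role, the activator windows held 7 summits, all at hid and rpr, or 0.687 per 10 kb. The Diap1 window held 5, or 1.53 per 10 kb. The caspase windows held 3, or 0.45 per 10 kb, against 0.445 over the windows of all protein-coding genes. That caspase count includes the overlapping pair at Dcp-1. It was 2 with overlapping regions merged, 1 without replicate 1, 1 with windows of 2 kb and 6 with windows of 20 kb. The activator count also depended on the window. It was 2 with windows of 2 kb and 8 with windows of 20 kb. With windows of 5 kb the activators and the caspases held 3 summits each. The p53 window held 2, or 0.819 per 10 kb. Over the whole arms there were 0.284 summits per 10 kb. The highest signals were 250 for the activators, 229 for Diap1, 191 for the caspases and 166 for p53. These values are not compared by a test, because 1 to 4 genes stand in each role and neighbouring peaks share a locus.

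A summit within 1000 bp of a start site of the gene was found at rpr, hid and Diap1, and at none of grim, skl, the caspases or p53. This makes 3 of 9 genes (33.3%), against 20.4% of all protein-coding genes. That share is not matched for gene length or number of start sites, of which Diap1 has 5. In the top regions of replicate 1 alone there were 4 genes with such a summit, Dronc added. In those of replicate 3 alone there were 2, without rpr. The nearest protein-coding start site belonged to the member for 8 of the 17 peaks, at rpr, hid and Diap1 only. It was that of a neighbour for the other 9, which include all 5 at the caspases and p53.

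**Figure D5:**
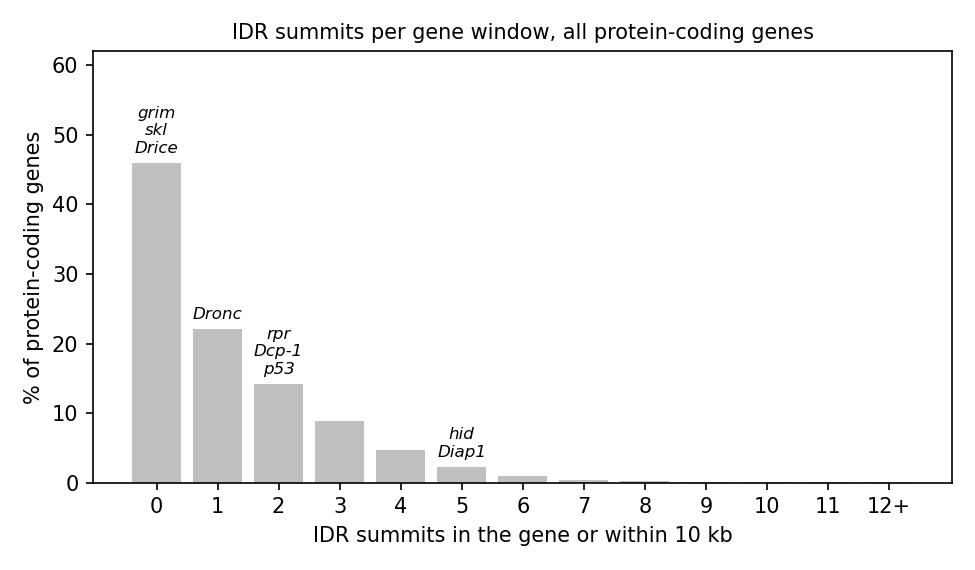
Share of protein-coding genes (%) by the number of IDR summits in the gene or within 10 kb, with the 9 apoptosis genes written above their bar. With 5 summits each, hid and Diap1 stand at the sparse end of the distribution, while grim, skl and Drice stand with the 46% of genes that have none. The distribution covers genes of all lengths, and hid and Diap1 are the longest of the 9.

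Non-coding genes were left out of the location classes. Of the 17 summits, 8 lay within 1000 bp of the start site of some protein-coding gene, 2 in introns farther away and 7 between protein-coding genes. Over all peaks on the arms, 64.1% lay at promoters, 24.1% in introns and 10.8% between protein-coding genes. The intergenic summits were 4 at hid, 1 at rpr and 2 at Diap1. In the strongest 3827 regions of the replicates, 10 of the 17 peaks were present in both, against 69.1% of all IDR peaks on the arms. A further 2 were in those of replicate 1 alone, 3 in those of replicate 3 alone and 2 in neither.

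Within 50 bp of the summit, 1 of the 17 peaks (5.88%) held an exact AP-1 site, against 4.08% of all peaks on the arms. Anywhere in the region, 4 did (23.5%), against 8.60%. Besides both rpr peaks, these were the peak 387 bp beyond Diap1, with a site 215 bp from its summit, and the p53 peak 850 bp beyond the gene, with a site 162 bp away. When 1 mismatch was allowed at any base but the central one, 4 of 17 (23.5%) held a site within 50 bp, against 19.5% of all peaks. No member summit had the DRE (TATCGATA), the GAGA sequence (GAGAGAG) or the CRE (TGACGTCA) within 50 bp on either strand. The shares over all peaks were 3.23%, 3.34% and 0.421%. Farther from the summit, the Dcp-1 region of signal 91.8 held a DRE. The hid regions of signal 160 and 101 and the Diap1 region of signal 92.7 held GAGA sequences there. Shares of all peaks with these motifs anywhere in the region were not computed. The 9 windows together contain 26 exact AP-1 sites, of which 4 (15.4%) lay in an IDR region and 7 (26.9%) in any pooled region. Over the arms, 2.96% of 11142 sites lay in an IDR region and 16.7% in a pooled region. These shares are not matched for peak density. The member windows held 0.753 IDR summits per 10 kb, against 0.284 over the arms. Of the 4 sites in an IDR region, 2 were at rpr.

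Below the IDR list, the windows held 55 further regions of the pooled list, with signals from 16.1 to 69.1 and a median of 25.6. Of these, 33 overlapped a region of both replicates and 1 overlapped neither. They were unevenly spread, with 17 at Diap1, 15 at hid, 7 at Dronc, 5 each at rpr and p53, and 3 each at Drice and Dcp-1. The promoters of p53, Dronc and Dcp-1, which had no IDR summit, had a region of this kind. Those regions and the one in Mbs were singled out after their values were seen. Those of grim, skl and Drice had none.

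A wider list of 34 genes of apoptosis and its regulation was described in the same way, with 3 of them listed under another symbol. A summit lay in the window of 22 (64.7%), against 54.0% of all protein-coding genes, and within 1000 bp of a start site of 14 (41.2%), against 20.4%. These promoter counts include peaks nearer to the start site of another gene, as at Acn, and the background was counted in the same way. The strongest peak in the window was nearest to the start site of the gene itself for 8 of these 22. The 6 genes with the strongest peaks follow. The window of tefu, which encodes the fly ATM kinase, held a peak of signal 604 (rank 19) nearest to the start site of Art3. That of dnr1, an inhibitor of caspases, held a peak of 333 nearest to CG11362, and its own promoter peak had a signal of 88.4. The cytochrome c genes Cyt-c-d and Cyt-c-p share a peak of 305 that was nearest to Cyt-c-p. Acn, which encodes the fly Acinus protein, had a peak of 287 at 130 bp from its start site, although the start of Ttc19 was nearer. At eff, a ubiquitin-conjugating enzyme gene, the strongest peak (233) lay 2178 bp from its start site and a promoter peak had a signal of 159. Of the 4 other caspase genes on the list (Dredd, Strica, Decay and Damm, singled out after their values were seen), 2 had a summit in the window. A single one, Strica, had it at its own promoter, at 6 bp from the start site with a signal of 136.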

How the data were processed

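Per the labels and the text records with the files, the authors deposited regions called on each replicate, on both replicates pooled, and an IDR list derived from these, on dm6 and dm3. The dm6 lists were used, and the labels name the build. The signal of each region is as the authors deposited it. The sources used here do not give the aligner, peak caller, versions or IDR cutoff, and controls were not analysed here. The IDR list holds the 3827 strongest regions of the pooled list, so ranks in single replicates were given beside it. Summits are 1-based. No region ended beyond its chromosome in the Release 6 sequence. Gene models came from Ensembl release 115. For single replicates the top 3827 regions were used. A region's replicate value is that of the strongest region overlapping it by at least 1 bp. Motif searches covered both strands and 50 bp to each side of a summit. Counting was tested on made-up data. Named genes are the 9 members, genes with the start site nearest to their peaks, and up to 6 of the wider list by signal in the window. Members and lists were chosen with earlier results of these data known, and the 5 kb length limit after seeing the values. Python 3.11.15, numpy 2.4.6, pandas 2.3.3 and matplotlib 3.10.9 were used.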

Additional observations from a re-analysis of the deposited data

How the results depend on the processing

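Of 67 values under other settings, 50 stayed within 1.5 times the count reported and 17 did not. With windows of 2 kb the total fell from 17 summits to 9, the activators from 7 to 2, the caspases from 3 to 1 and p53 from 2 to 1. With 5 kb the activators held 3, since the far upstream hid peaks were left out. With 20 kb the caspases held 6. In the 1901 peaks of higher signal there were 9 summits, with 4 at the activators, 2 at Diap1 and 1 at the caspases. By nearest protein-coding start site, a setting added after seeing the data, there were 8 summits at 3 genes, with 3 at Diap1 and none at the caspases or p53 (0 each). AP-1 sites anywhere in the region were in 4 peaks in place of 1. Merging overlapping regions, also added, gave 16. From 1 replicate alone, the total was 13 to 16, genes with a summit 5 to 6, promoters 2 to 4, activators 6, Diap1 4 to 5, caspases 1 to 3, p53 2, AP-1 sites 1 and the wider list 22 to 26. In replicate 1 alone the Dronc summit was the one at its promoter (rank 3720), in place of the IDR summit near vnc (rank 3852). Without replicate 1 the caspases had 1. No Dronc summit remained, while both Dcp-1 peaks overlapped the same top region of replicate 3, which counts as 1 summit. The cause of these shifts beyond the settings themselves was not tested. No paired analysis was possible because there is 1 group. Read depth is unknown, so the absence of a region does not show absence of binding.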
